A study of Arabidopsis thaliana with 28 samples.

Results

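Among 22746 Arabidopsis probe sets, 36 stood higher in shoots that overexpressed BAM8 (BAM8_Ox) and in the BAM8-Cat_Ox line alike than in a baseline of wildtype, BAM8-DNA_Ox and BAM8-Lig_Ox shoots. These 36 members were chosen by their measured values. On the log2 scale, the mean of BAM8_Ox and the mean of BAM8-Cat_Ox each had to lie at least 0.585 (1.5-fold) above the mean of the 6 baseline arrays and to reach a level of 5 (32 intensity units). The bam7 bam8 double mutant had to lie less than 0.5 below wildtype. Of the 74 probe sets past the rise in both lines, 19 were left out because bam7 bam8 was too low, 18 because the level was too low and 1 for both reasons. The rule also leaves out 248997_AT, whose level was high in BAM8_Ox, BAM8-Cat_Ox and also in 2 of the 3 baseline groups. This probe set had 933.7 and 1067 intensity units in BAM8_Ox and 725.4 and 405.3 in BAM8-Cat_Ox, against 352.3 and 390.9 in BAM8-DNA_Ox, 294.3 and 268.2 in BAM8-Lig_Ox and 41.5 and 40.1 in wildtype. BAM8-Cat_Ox replicate 2 thus lay close to BAM8-DNA_Ox replicate 2. The lowest values of 248997_AT on all arrays were 14.4 and 14.4 units in BAM8-N_Ox, where part of the members were also high. The part of its level in the members' rises was not tested. Since the values of these 6 groups made the choice, their differences at the members are given here as a description, with no test.

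BAM7 and BAM8 are nuclear proteins that join a DNA-binding domain of the BZR1 type to a domain resembling beta-amylase. BZR1 and its relatives are transcription factors that act in the response to brassinosteroids, a class of plant growth hormones, while beta-amylases of the chloroplast release maltose from starch. The question behind the series is what the enzyme-like domain adds when these proteins recognise DNA and turn on transcription.

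Each of the 28 arrays measured RNA from a pool of 14 untreated Col-0 plants, 3 weeks old, and the arrays formed 14 genotype groups of 2 biological replicates. The 10 overexpression groups were BAM8_Ox, BAM8-Cat_Ox, BAM8-N_Ox, BAM8-DNA_Ox, BAM8-Lig_Ox, BAM7_Ox, BAM7-N_Ox, BAM7-Cat_Ox, BAM7-Lig_Ox and BAM7-DNA_Ox, and the remaining groups were the double mutant bam7 bam8, the single mutants bam7 and bam8, and wildtype. The labels do not define the suffixes DNA, Cat, Lig and N, the promoter of the transgenes, the number of independent lines or whether an overexpression line also carries a mutant allele. Array medians lay between 23.5 and 25.8 intensity units and 25th percentiles between 6.78 and 8.37. Gaps of over 2-fold between the replicates were found at 254 probe sets in BAM7-Cat_Ox and at 6 to 78 elsewhere. Nothing in the files links a probe set to a gene, so members are given by their IDs, at most 2 per direction in a comparison. For the same reason neither shoot markers nor BAM7 and BAM8 themselves were checked, and no sequence is shown. In these bulk samples, fewer cells of a type and less RNA per cell cannot be told apart.

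The members ranged from weak to strong signals and most of their rises were small. Their baseline lay between 2.18 and 11.81 on the log2 scale, with a median of 5.62. The smaller of the 2 rises over the baseline had a median of 0.75, and it was under 0.8 in 19 members, 1 or more in 10 and 2 or more in 2. The 3 members just inside the limit had smaller rises of 0.595, 0.599 and 0.601, and the 3 probe sets just outside it had 0.576, 0.580 and 0.582, so the border of the set is not a gap in the values. In 34 of the 36 members, all 4 arrays of BAM8_Ox and BAM8-Cat_Ox lay above all 6 baseline arrays, an arrangement that 1.14% of all probe sets showed and that the rule favours. The 2 members with overlap were 264635_AT and 267181_AT, named after their values were seen. At 19 members the same 4 arrays also lay above the 24 arrays of all other groups, as 0.259% of all probe sets did. The rule used 12 of these 28 arrays, so this count too is largely set by the choice and is only a description.

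**Figure D1:**
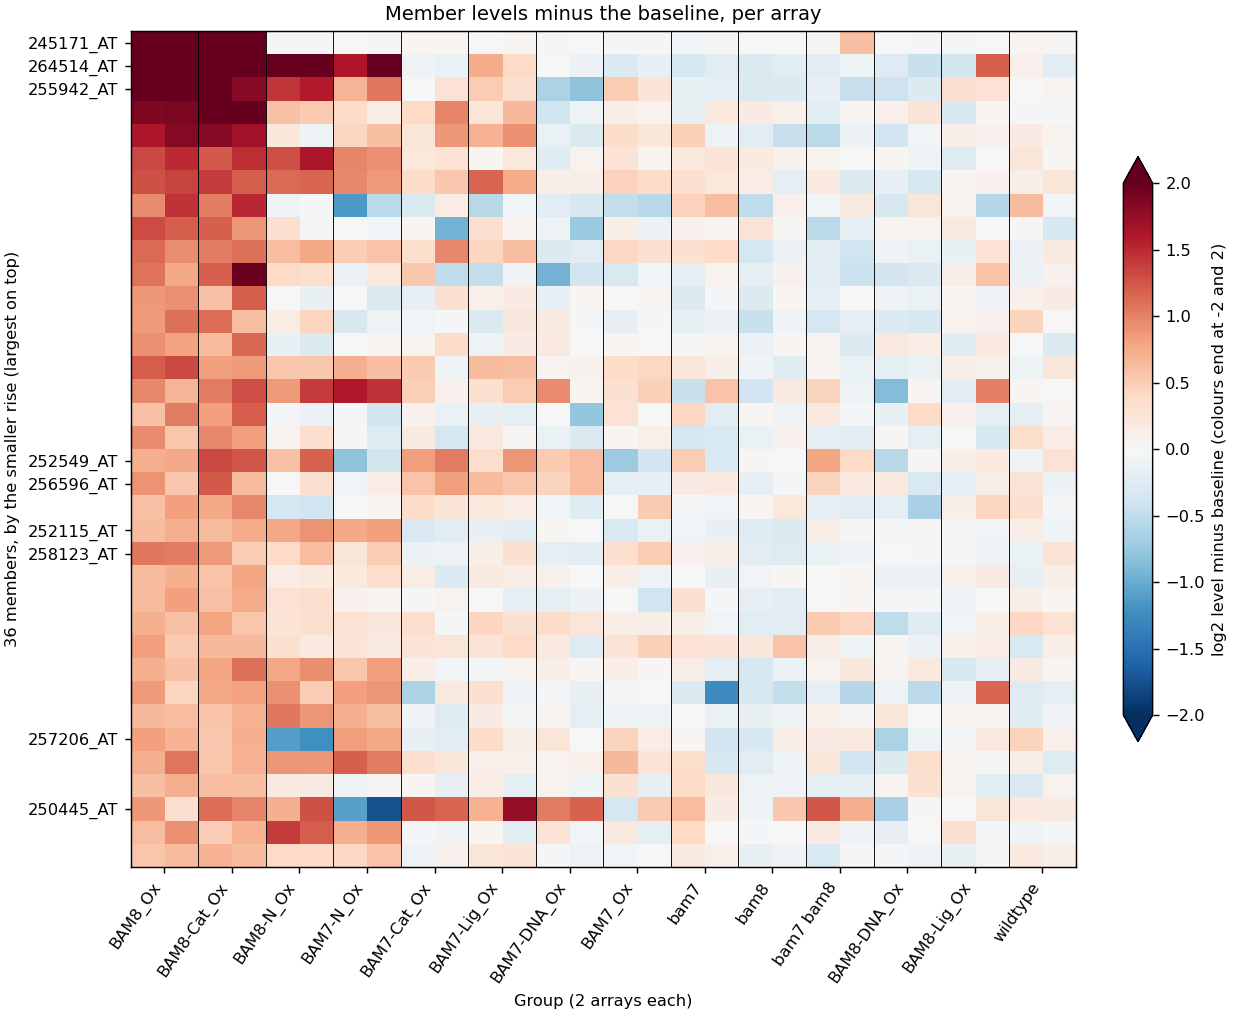
Heat map of the 36 members (rows, ordered by the smaller rise, largest on top) on 28 arrays (columns, 2 per group), coloured by the log2 level minus the baseline, with colours ending at -2 and 2. The 4 columns of BAM8_Ox and BAM8-Cat_Ox on the left are above the baseline in all rows because they chose the rows, and part of the rows is also red in the 4 columns of the N lines.

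The membership depended on which arrays were used. The rule applied to the replicate 1 arrays alone chose 48 probe sets, of which 23 are members, and applied to the replicate 2 arrays alone it chose 43, of which 24 are members. All of these arrays entered the choice of the 36.

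The member with the largest rise, 245171_AT, stood far above the other groups in the choosing lines. It had 42.1 and 36.6 intensity units in BAM8_Ox and 75.0 and 75.2 in BAM8-Cat_Ox, against 4.68 and 4.60 in wildtype, 4.54 and 4.41 in BAM8-DNA_Ox and 4.38 and 4.51 in BAM8-Lig_Ox. Both lines were thus far above the baseline, with no overlap. All 6 baseline arrays lay under the 25th percentile of their array, where a signal may be background. The rises of 3.12 in BAM8_Ox and 4.05 in BAM8-Cat_Ox on the log2 scale may thus be lower bounds. In bam7 bam8 it had 4.57 and 6.87 units, and over the 16 arrays of the 8 groups outside the rule it stayed between 4.35 and 4.64. The N lines were within that range, with 4.47 and 4.39 units in BAM8-N_Ox and 4.50 and 4.46 in BAM7-N_Ox.

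The next member, 264514_AT, was also high in both N lines. It had 59.3 and 53.4 units in BAM8_Ox and 114.2 and 129.7 in BAM8-Cat_Ox, against 8.90 and 7.13 in wildtype, 6.93 and 6.10 in BAM8-DNA_Ox and 6.47 and 19.1 in BAM8-Lig_Ox. One BAM8-Lig_Ox array stood above the other baseline arrays, yet below all arrays of the choosing lines. In BAM8-N_Ox it had 74.0 and 83.7 units and in BAM7-N_Ox 25.5 and 36.1, while the other 12 arrays outside the rule lay between 6.52 and 13.9. The member 255942_AT had 265.2 and 295.9 units in BAM8_Ox and 237.2 and 208.2 in BAM8-Cat_Ox, above the 24 other arrays, the highest of which was BAM8-N_Ox replicate 2 at 176.3. At 255942_AT the baseline ran from 44.1 to 74.2 units.

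**Figure D2:**
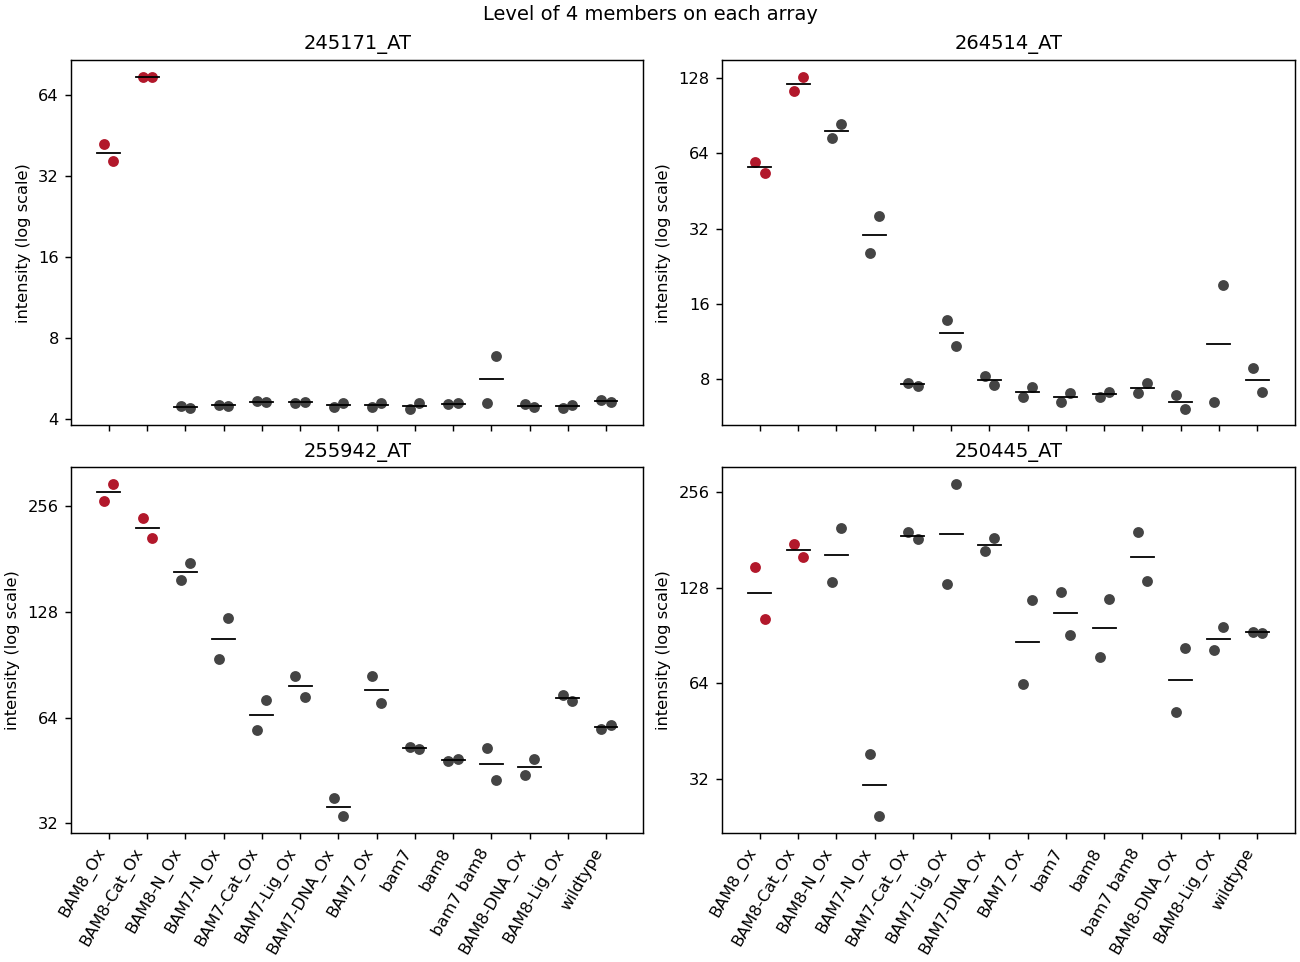
Intensity (log scale) of 4 members on each array, by group, where points are arrays, bars are geometric means of 2 arrays and red marks the 2 choosing lines. 245171_AT is high only in the red groups, 264514_AT also in the N lines, 255942_AT is lowest in BAM7-DNA_Ox, and 250445_AT is lowest in BAM7-N_Ox at 24.4 and 38.2 units.

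BAM8-Cat_Ox and BAM8_Ox, which both made the choice, were at similar levels in most members, a likeness that the rule favours. The difference between them had a median of 0.02 on the log2 scale, against -0.01 over all probe sets, with 22 members higher in BAM8-Cat_Ox and 14 lower. It was under 0.25 in size in 24 members, and the median gap between the 2 replicates was 0.19 in BAM8-Cat_Ox and 0.17 in BAM8_Ox. BAM8-Cat_Ox was 0.5 or more higher in 5 members and 0.5 or more lower in 0, with a range from -0.43 to 1.11. Shares of all probe sets were not counted for these sizes, so the counts are a description. The 2 members with the largest rises led here too, at 1.11 for 264514_AT and 0.94 for 245171_AT.

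**Figure D3:**
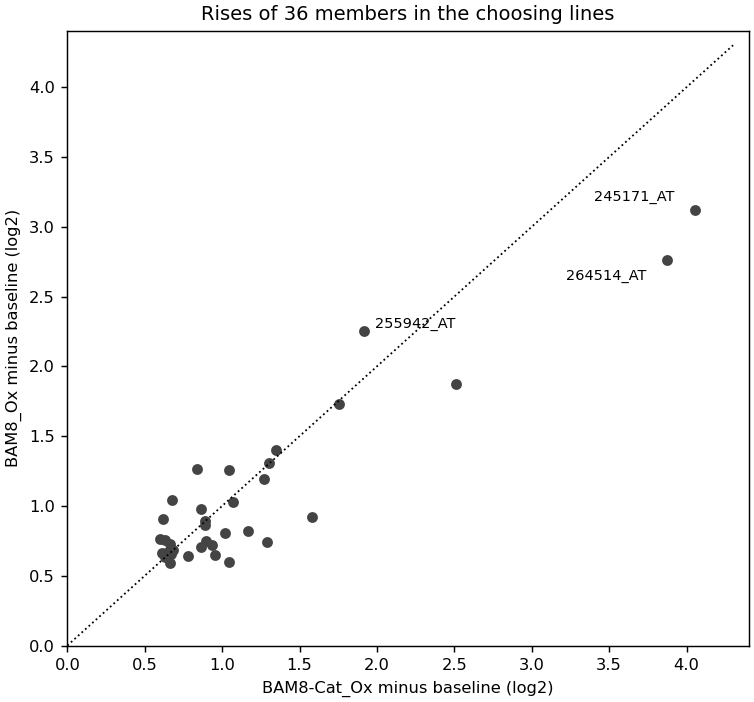
Log2 rise over the baseline of each of the 36 members in BAM8-Cat_Ox (horizontal) and in BAM8_Ox (vertical), where the dotted line marks equal rises. Most points lie near the line, and 264514_AT and 245171_AT lie on the side of BAM8-Cat_Ox.

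Relative to the same baseline, whose arrays the rule used, the N lines came nearest to the choosing lines. In BAM8-N_Ox, 14 members were past a rise of 0.585 and 1 was past a fall of that size, with a median of 0.39, against 1.17% and 0.994% of all probe sets. In BAM7-N_Ox, 13 members were past the rise and 3 past the fall, with a median of 0.27, against 1.38% and 1.3% of all. The counts past the rise were 6 in BAM7-Lig_Ox (0.268% of all probe sets), 5 in BAM7-Cat_Ox (0.585%), 1 in BAM7-DNA_Ox (0.303%) and 2 in bam7 bam8 (0.273%). No member was past the rise in BAM7_Ox (0.136% of all), bam7 (0.185%) or bam8 (0.0308%). The medians of these 7 groups lay between -0.11 in bam8 and 0.17 in BAM7-Lig_Ox.

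The values of the 8 groups outside the rule did not enter the choice, and 7 comparisons between such groups were tested. They came from a limma fit of all 28 arrays, so the pooled spread includes the arrays of the rule. Benjamini-Hochberg adjustment covered 22746 probe sets, and calls were made at an adjusted p under 0.05. The rule's level minimum left out dim probe sets, which the shares of all probe sets include. The members were also chosen with earlier results of these data known. The shares of all are thus no matched control for the members. In at least 1 of the 7 comparisons, 19 of the 36 members were called, against 6.19% of all probe sets, and the other 17 in none, among them 245171_AT. Comparisons that share BAM7_Ox, BAM8-N_Ox or BAM7-N_Ox are given side by side, each with its own values.

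Many members were higher in BAM8-N_Ox than in the bam8 mutant. Of the 36, 15 were higher and 1 lower (44.4% called), against 2.31% of all probe sets called, 1.52% higher and 0.796% lower. The median difference of the members was 0.51 on the log2 scale, with 30 above 0, while the median of all probe sets was -0.04. The 15 rises ran from 0.51 to 3.50. The largest was 264514_AT, at 74.0 and 83.7 units in BAM8-N_Ox against 6.80 and 7.15 in bam8, a rise of 3.50 (11.3-fold, SE 0.301, limma adjusted p 1.85e-06). Both bam8 values were under the 25th percentile of their arrays, so this fold may be a lower bound. Next came 255942_AT, with 157.8 and 176.3 units in BAM8-N_Ox and 48.2 and 49.0 in bam8, a rise of 1.78 (3.43-fold, SE 0.139, limma adjusted p 7.57e-07). The single fall was that of 257206_AT, which had 53.0 and 48.8 units in BAM8-N_Ox and 91.8 and 124.6 in bam8, a difference of -1.07 (SE 0.186, limma adjusted p 0.00302). Its BAM8-N_Ox arrays were the lowest of all 28. With bam7 in place of bam8, 9 members were higher (1.31% of all probe sets), and with BAM7_Ox in its place 11 were (1.35%), choices of comparison made after the data were seen. When only the 4 arrays compared were fitted, 1 member and 2 probe sets in all were called. Part of the calls was lost when any 1 of the 4 arrays compared was left out. Over 13 alternatives the difference was 3.41 to 3.68 at 264514_AT, 1.70 to 1.86 at 255942_AT and -1.29 to -0.85 at 257206_AT.

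Part of the members were also higher in BAM7-N_Ox than in the unsuffixed BAM7_Ox line. Of the members, 7 were higher and 1 lower (22.2%), against 3.09% of all probe sets called, 1.53% of them higher and 1.56% lower. Their median difference was 0.22, against 0.01 for all probe sets. At 264514_AT the values were 25.5 and 36.1 units in BAM7-N_Ox and 6.80 and 7.49 in BAM7_Ox, a rise of 2.09 (4.25-fold, SE 0.301, limma adjusted p 0.000424). Since 1 BAM7_Ox value was under the 25th percentile of its array, this fold may be a lower bound. The brightest member, 252115_AT, had 6061 and 6289 units in BAM7-N_Ox and 2893 and 3266 in BAM7_Ox. Its rise was 1.01 (2.01-fold, SE 0.0872, limma adjusted p 2.06e-06), measured from BAM7_Ox, which stood at -0.22 from the baseline. Relative to the baseline, BAM7-N_Ox stood at 0.79, beside the rises that chose this member, 0.69 in BAM8_Ox and 0.68 in BAM8-Cat_Ox. The fall was that of 250445_AT, with 38.2 and 24.4 units in BAM7-N_Ox and 63.5 and 117.0 in BAM7_Ox, a difference of -1.50 (SE 0.353, limma adjusted p 0.0243). Part of the calls was lost without BAM7-N_Ox replicate 2 or without BAM7_Ox replicate 2, that of 250445_AT in both. Over 13 alternatives the difference was 1.84 to 2.34 at 264514_AT, 0.92 to 1.09 at 252115_AT and -1.94 to -1.06 at 250445_AT. With bam8 in place of BAM7_Ox, 18 members were called, of which 17 were higher (1.93% of all probe sets). With bam7 in its place 12 were called, of which 10 were higher (1.37%).

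The 2 comparisons of N lines have no array in common. All 7 members higher in BAM7-N_Ox were among the 15 higher in BAM8-N_Ox, of which they make up 46.7%. These counts use different reference groups, BAM7_Ox and bam8. Against the same reference, bam8 or bam7, BAM7-N_Ox had no fewer members higher than BAM8-N_Ox, as given above. Over all probe sets, 128 were higher in both comparisons, 36.8% of the 348 higher in BAM7-N_Ox and 37.1% of the 345 higher in BAM8-N_Ox. Across the 36 members the differences correlated with Pearson's r 0.65 and Spearman's rho 0.68, and without 264514_AT with r 0.47 and rho 0.65. Over all probe sets r was 0.41 and rho 0.24. Probe sets are not independent replicates, so these correlations are a description. Across the 36 members, the rise over the baseline in BAM8_Ox and the difference of BAM8-N_Ox from bam8 correlated with r 0.36 and rho 0.09. Without 264514_AT and 245171_AT the values were r 0.26 and rho 0.08. The rule set a lower limit on this rise, which narrowed its range among the members. No value over all probe sets is given for this pair. Whether the size of the BAM8_Ox rise goes with the difference of BAM8-N_Ox from bam8 thus cannot be decided here.

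**Figure D4:**
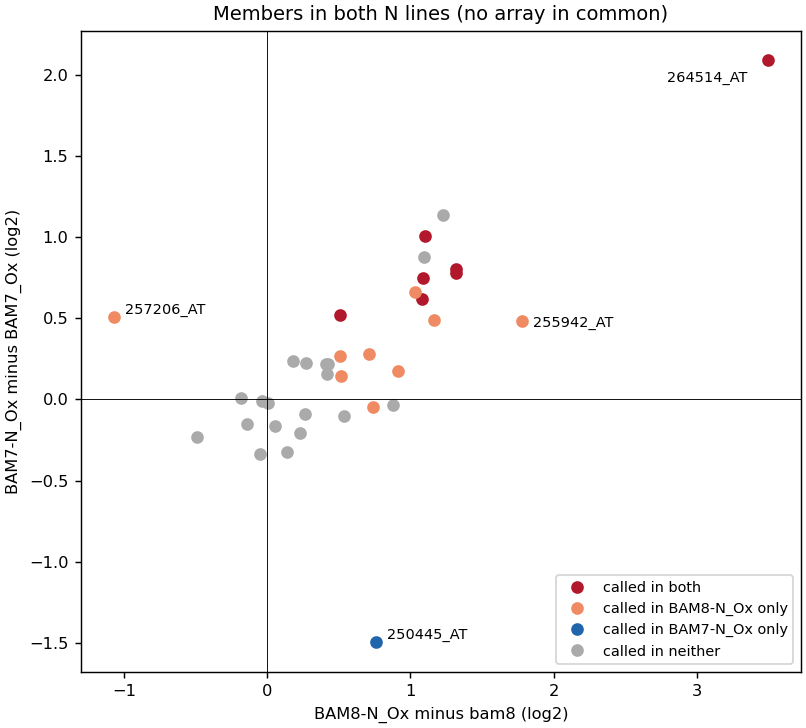
Log2 difference of each member in BAM8-N_Ox minus bam8 (horizontal) and in BAM7-N_Ox minus BAM7_Ox (vertical), coloured by the limma calls. The 7 members called higher in both are in the upper right, while 257206_AT and 250445_AT are the single falls of the horizontal and the vertical comparison.

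Set directly against BAM7-N_Ox, BAM8-N_Ox was higher at 4 members and lower at 1 (13.9%), against 0.813% of all probe sets called, 0.391% higher and 0.422% lower. The median difference was 0.14 for the members and -0.01 for all probe sets. The largest rise, that of 250445_AT, came from values of 133.3 and 196.9 units in BAM8-N_Ox and 38.2 and 24.4 in BAM7-N_Ox, a difference of 2.41 (5.30-fold, SE 0.353, limma adjusted p 0.00139). Probe set 252549_AT had 108.9 and 165.0 units in BAM8-N_Ox and 41.4 and 56.6 in BAM7-N_Ox, a difference of 1.47 (SE 0.261, limma adjusted p 0.00695). The fall was that of 257206_AT, at 53.0 and 48.8 units in BAM8-N_Ox and 203.1 and 194.1 in BAM7-N_Ox, a difference of -1.96 (SE 0.186, limma adjusted p 1.36e-05). At 257206_AT the BAM7-N_Ox arrays thus stood beside BAM8_Ox, at 201.2 and 184.0 units, and the BAM8-N_Ox arrays below the baseline, which ran from 73.7 to 155.8. The member 252115_AT was not called here, with a difference of 0.04 and a 95% interval from -0.14 to 0.23. The count of 5 was 0 when only these 4 arrays were fitted. Part of the calls was lost when any 1 of these 4 arrays was left out. Over 13 alternatives the difference was 2.08 to 2.73 at 250445_AT, 1.17 to 1.77 at 252549_AT and -2.02 to -1.91 at 257206_AT.

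**Figure D5:**
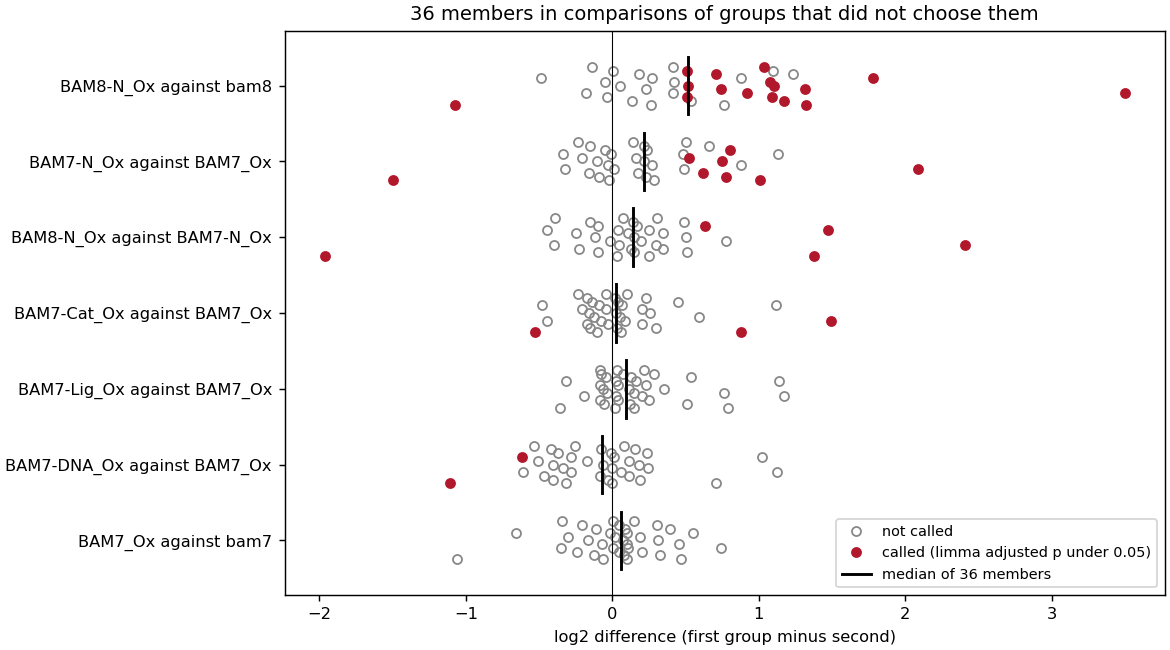
Log2 differences of the 36 members in the 7 comparisons between groups outside the rule, first group minus second, where red points were called by limma at an adjusted p under 0.05, open points were not, and black bars are medians. The bar lies at 0.51 for BAM8-N_Ox against bam8 and within 0.22 of 0 in the other 6 comparisons.

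Few members were called in the other BAM7 forms against BAM7_Ox, though in BAM7-DNA_Ox and BAM7-Cat_Ox at a higher share than all probe sets. These shares rest on few calls, which were lost in part of the alternatives, as given below. An unadjusted limma p under 0.05 was found at 12 members in BAM7-DNA_Ox, a higher share than the 8.56% of all probe sets. In BAM7-Cat_Ox it was found at 6 members, a lower share than the 23.4% of all, so the 2 counts differ in direction there. In BAM7-DNA_Ox, 2 members were lower and 0 higher than in BAM7_Ox (5.56%), against 0.444% of all probe sets called, 0.264% of them lower and 0.18% higher. The values of 255942_AT were 37.9 and 33.6 units in BAM7-DNA_Ox, the lowest 2 of all 28 arrays, against 84.2 and 70.3 in BAM7_Ox, a fall by 1.11 on the log2 scale (SE 0.139, limma adjusted p 0.000602). At 258123_AT the values were 87.0 and 84.4 units in BAM7-DNA_Ox and 123.8 and 139.0 in BAM7_Ox, a difference of -0.61 (SE 0.129, limma adjusted p 0.044). Relative to the baseline, BAM7_Ox itself stood at 0.38 at 255942_AT and 0.42 at 258123_AT, and BAM7-DNA_Ox at -0.72 and -0.20. The call of 258123_AT was lost in 7 of 13 alternatives, and without the 4 arrays of lowest 25th percentile, BAM7_Ox replicate 1 among them, neither was called. Leaving out any single array of either group also lost the call of 258123_AT. Over the 13 alternatives the difference was -1.24 to -0.98 at 255942_AT and -0.70 to -0.53 at 258123_AT. The median of the members was -0.07, and that of all probe sets 0.02.

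The 19 probe sets that rose like the members but were held out by their low level in bam7 bam8 were also set against BAM7_Ox in this comparison. In BAM7-DNA_Ox, 9 of these 19 were lower and 0 higher, with a median difference of -0.87. Of the 36 members 2 were lower, with a median of -0.07, against 0.264% of all probe sets. In BAM8-N_Ox against bam8, 8 of the 19 and 15 of the 36 members were higher (1.52% of all). In BAM7-N_Ox against BAM7_Ox, 4 of the 19 were higher and 2 lower (1.53% and 1.56% of all). BAM8-N_Ox was lower than BAM7-N_Ox at 2 of the 19 (0.422%), and BAM7_Ox higher than bam7 at 2 (0.0264%). In BAM7-Cat_Ox and BAM7-Lig_Ox against BAM7_Ox, 0 of the 19 were called (1.6% and 0.193%). The differences between the 2 sets were not tested.

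BAM7-Cat_Ox was higher than BAM7_Ox at 2 members and lower at 1 (8.33%), against 1.6% of all probe sets called, 0.558% of them higher and 1.04% lower. The values of 252549_AT were 129.7 and 149.0 units in BAM7-Cat_Ox and 44.1 and 55.4 in BAM7_Ox, a rise of 1.49 (2.81-fold, SE 0.261, limma adjusted p 0.00965). Those of 256596_AT were 80.0 and 96.4 units in BAM7-Cat_Ox and 47.6 and 48.0 in BAM7_Ox, a rise of 0.88 (SE 0.2, limma adjusted p 0.0365). The fall was that of 258123_AT, with 90.2 and 91.6 units in BAM7-Cat_Ox and 123.8 and 139.0 in BAM7_Ox, a difference of -0.53 (SE 0.129, limma adjusted p 0.0468). These calls were lost in 6, 7 and 8 of 13 alternatives, among them the fit of only the 4 arrays compared, which called 0 probe sets. Leaving out BAM7-Cat_Ox replicate 2 or BAM7_Ox replicate 1 lost all of these calls. Over the 13 alternatives the difference was 1.33 to 1.68 at 252549_AT, 0.62 to 1.01 at 256596_AT and -0.61 to -0.45 at 258123_AT. Relative to the baseline, BAM7_Ox itself stood at -0.55 at 252549_AT, -0.17 at 256596_AT and 0.42 at 258123_AT. At the same members BAM7-Cat_Ox stood at 0.94, 0.70 and -0.11.

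No member was called by limma in BAM7-Lig_Ox against BAM7_Ox, where 0.193% of all probe sets were (0.0747% higher, 0.119% lower), and 7 members had an unadjusted p under 0.05, beside 10.5% of all probe sets. Without BAM7-Lig_Ox replicate 1, which leaves 1 array in that group, the absence of calls did not hold. The largest difference in BAM7-Lig_Ox was that of 252549_AT, with 92.2 and 134.5 units in BAM7-Lig_Ox and 44.1 and 55.4 in BAM7_Ox, a value of 1.17 (95% interval 0.62 to 1.72, limma adjusted p 0.0862). At this member and at 250445_AT, BAM7_Ox and BAM7-N_Ox had the 2 lowest means of 6 groups, those of BAM7 overexpression and the bam7 single mutant. The values of 250445_AT were 131.8 and 271.6 units in BAM7-Lig_Ox, 192.3 and 181.7 in BAM7-Cat_Ox and 166.9 and 183.3 in BAM7-DNA_Ox, beside 63.5 and 117.0 in BAM7_Ox. Its differences from BAM7_Ox of 1.13, 1.12 and 1.02 were not called, with limma adjusted p of 0.226, 0.0988 and 0.323.

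The unsuffixed BAM7_Ox line was compared with the bam7 mutant to set excess against loss of BAM7. By limma, 0 members were called, where 0.0352% of all probe sets were (0.0264% higher, 0.00879% lower), and 8 members had an unadjusted p under 0.05, beside 5.13% of all. The member differences ran from -1.06 to 0.74 with a median of 0.06, against 0.01 for all probe sets. At 255942_AT the values were 84.2 and 70.3 units in BAM7_Ox and 52.9 and 52.2 in bam7, without overlap, and the difference of 0.55 (95% interval 0.26 to 0.84) had a limma adjusted p of 0.353.

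Differences from wildtype share its 2 arrays with the rule and are given with no test. The median of the members was 0.05 in bam7 and -0.17 in bam8, while that of all probe sets was -0.04 in both. In bam8, 26 members were below wildtype and 10 above, from -0.57 to 0.48, and in bam7 16 were below and 20 above, from -0.57 to 0.42. In BAM7_Ox the median was 0.05, from -0.81 to 0.52. The largest value in bam7 bam8, 0.79, was that of 250445_AT, whose 191.9 and 134.2 units in bam7 bam8 stood above the 92.9 and 92.3 of wildtype. In BAM8_Ox this member had 149.0 and 102.2 units. Relative to the baseline, the mean of 250445_AT was 0.98 in bam7 bam8, 0.60 in BAM8_Ox and 1.05 in BAM8-Cat_Ox. The 6 arrays of BAM7-DNA_Ox, BAM7-Cat_Ox and BAM7-Lig_Ox, given above for this member, also exceeded wildtype.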

How the data were processed

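Per the labels' protocols, plants grew at 20 °C with a 12 h day and relative humidity at 70%, and shoots were harvested 4 h into the light. The authors deposited 1 linear intensity per probe set and array. The submitters' processing notes name RMA, with no version, and the spread of the values points to its antilog. Values were put on the log2 scale, 1 control probe set of 22747 was left out, and no filter on low values was used. One mean per group was fitted to 28 arrays with limma 3.58.1 in R 4.3.3, with two-sided moderated tests (median SE 0.139, 17.7 degrees of freedom), after tests on simulated data. Each group holds 2 arrays, so precision is limited by the number of arrays, with the spread pooled over 14 groups. Alternatives were fitting the compared groups alone, leaving out dim probe sets (15164 kept), a robust variance trend, a replicate block, cyclic loess, array weights, leaving out _s_at and _x_at probe sets, and leaving out each array. Added after the data were seen were leaving out the 4 arrays of lowest 25th percentile, that percentile as a covariate, and other comparison groups. The members and lists were chosen with earlier results of these data known. IDs named are the members with the largest rises, the called members with the largest change per direction, and a few followed through other groups after their values were seen. The gene lists and promoter letters planned could not be looked up without a table that names probe sets. Python 3.11.15 with matplotlib 3.10.9 drew the figures.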

Additional observations from a re-analysis of the deposited data

How the results depend on the processing

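No difference of the 34 pairs of a called member and a comparison changed sign in 13 alternatives each, of which 347 of 442 values kept the call and 95 lost it. Of the lost calls, 49 came from leaving out 1 array, 27 from fitting only the 4 arrays compared and 19 from other alternatives. In the fit of only the 4 arrays the member count was 0 for BAM7-Cat_Ox against BAM7_Ox, 0 for BAM8-N_Ox against BAM7-N_Ox and 1 for BAM8-N_Ox against bam8, with fewer degrees of freedom. In BAM7-Cat_Ox the count was also 0 with array weights, 0 without the 4 arrays of lowest 25th percentile, 0 with that percentile as a covariate and 2 of 3 members remained called with cyclic loess. In BAM7-DNA_Ox the count of 2 was 3 without the dim probe sets and with a robust variance trend, 1 of them higher in each, 1 higher and 1 lower when only the 4 arrays were fitted, 1 with the percentile as a covariate and 0 without the 4 arrays. The count for BAM8-N_Ox against bam8 was 10 with bam7 as the other group, and that for BAM7-N_Ox was 18 with bam8. Leaving out single arrays gave 1 to 1 members for BAM7-DNA_Ox, 0 to 7 for BAM7-Cat_Ox, 0 to 1 for BAM7-Lig_Ox, 4 to 9 for BAM7-N_Ox, 2 to 4 for BAM8-N_Ox against BAM7-N_Ox, 9 to 12 against bam8 and 0 to 0 for BAM7_Ox against bam7. The number of members was 40 with cyclic loess, 35 of them shared, and 43 to 48 from 1 replicate number alone. The causes were not tested where none is given.

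The replicate numbers pair no samples by the labels. Replicate differences of 2 groups correlated between -0.381 and 0.434 over 91 pairs of groups, 24 of them above 0.1. With the replicate number as a block, the counts of members called were 2, 3, 0, 8, 5, 16 and 0, the same as without it, in the order BAM7-DNA_Ox, BAM7-Cat_Ox, BAM7-Lig_Ox and BAM7-N_Ox against BAM7_Ox, BAM8-N_Ox against BAM7-N_Ox, BAM8-N_Ox against bam8 and BAM7_Ox against bam7.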
